A study of Mus musculus with 3 samples.

Results

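Transcripts of the proteasome, the protein-degrading machine of the cytosol and nucleus, were followed in cytosolic RNA of mouse macrophages. Genes were taken by symbol, Psma to Psmg followed by a digit, and by having a transcript annotated as protein coding. This gave 50 genes of the 55536 Ensembl genes measured, of which 21901 had a protein-coding transcript. A further 4 pseudogenes (Psmb5-ps, Psmb6-ps, Psmb6-ps2 and Psmb7-ps2) fitted by name only, and all 4 held 0 counts in each library. Psmc3ip, a factor of meiotic recombination named for binding an ATPase of the proteasome, fits the symbol rule but is not a subunit. It is counted among the 50 and described apart.

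The 3 libraries came from 1 group, biological replicates 1, 2 and 3 in the labels, so no untreated macrophages were compared. The cells were bone marrow-derived macrophages, phagocytes grown out of marrow, of the C57BL/6J mouse strain. They had been kept for 12 h with 100 ng/ml Lipid A, the membrane anchor of bacterial endotoxin and the ligand of the receptor TLR4. They were then washed, rested for 12 h and stimulated for 50 min with Lipid A at the same 100 ng/ml. Total RNA of the cytosolic fraction, 1 µg per library, was freed of ribosomal RNA and sequenced as fragments of 250 to 400 bases. The labels give 1 donor entry of the strain for all 3 libraries and record neither sex nor age. They do not say whether the replicates were grown from separate animals, so p-values apply to these samples only and do not measure spread between animals.

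The core of the proteasome is a barrel of α and β rings, in which 3 kinds of β subunit, β1, β2 and β5, cut proteins. In immune cells, and in other cells under interferon γ, the related subunits β1i (Psmb9), β2i (Psmb10) and β5i (Psmb8) are built into new barrels in place of β1 (Psmb6), β2 (Psmb7) and β5 (Psmb5). The resulting immunoproteasome cuts out peptides suited to major histocompatibility complex (MHC) class I. A cap of ATPases and lid subunits takes up ubiquitin-tagged proteins, and other caps, among them the interferon-induced PA28αβ (Psme1 and Psme2), open the barrel without ubiquitin.

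Replicates 1, 2 and 3 held 47972062, 54409436 and 53491957 expected counts (estimated reads) on genes. At this depth a gene with 0 counts may lie as high as 0.0625, 0.0551 and 0.0561 CPM (counts scaled to library size), a limit of 3 counts that covers counting error alone. These limits use the totals above, before the adjustment of library sizes described below. Levels of different genes are given in TPM, the abundance of transcripts after division by length, scaled to a fixed total. TPM is a share of all features including short RNAs, and the median expressed coding gene had 9.79, 7.29 and 10.3 TPM in replicates 1, 2 and 3. Libraries were therefore compared in CPM with library sizes adjusted by the trimmed mean of M-values (TMM). All 10 macrophage markers were expressed, at summed levels of 6400 to 8365 TPM, whereas markers of dendritic, B, T and NK cells, neutrophils, fibroblasts and endothelium summed to at most 13.7 TPM per list in any library, that value being 3 endothelial markers led by Kdr. The neutrophil marker Ly6g was at 0. The nuclear RNAs Malat1 and Neat1 differed widely between the libraries: Malat1 had 5966, 3089 and 1426 CPM and Neat1 636, 248 and 128 CPM in replicates 1, 2 and 3.

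The proteasome was expressed almost whole. Of the 50 genes, 47 reached 1 TPM in every library, against 41.4% of all genes with a protein-coding transcript. The 3 that did not were the thymic catalytic subunit Psmb11, the testis α subunit Psma8 and Psmc3ip. The median gene stood at 37.0, 28.3 and 39.9 TPM in replicates 1, 2 and 3, a mean of 35.1 ± 6.02 (SD, n = 3), against 9.13 ± 1.61 for the median expressed coding gene. In a bulk sample fewer cells of a type and less RNA per cell cannot be told apart.

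**Figure D1:**
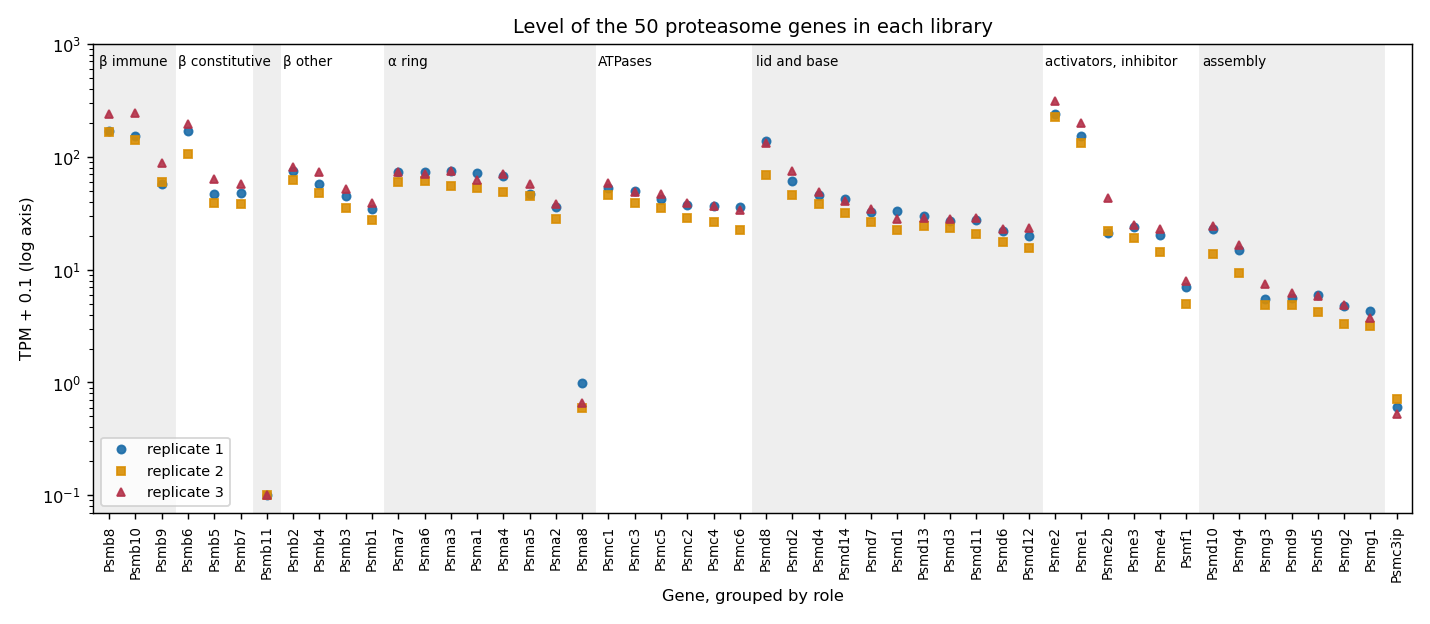
TPM plus 0.1 on a log axis for each of the 50 genes, ordered by role and by mean within each role; every symbol is 1 library. Psme2, Psmb8, Psmb10, Psme1 and Psmb6 stood highest, with means of 157 to 259 TPM, and Psmb11 was listed at 0 in all 3 libraries.

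Immune and constitutive subunits were both abundant, and which of the pair led depended on the catalytic slot. In the β5 slot, which cuts after bulky hydrophobic residues, Psmb8 had 168, 166 and 239 TPM in replicates 1, 2 and 3, against 46.6, 38.8 and 63.2 TPM for Psmb5. The immune subunit was the higher in all 3 libraries, by 3.60, 4.29 and 3.77 times, and the levels of the pair did not overlap. The difference Psmb8 minus Psmb5 in log2(TPM + 1) was 1.93 ± 0.13 (SD, n = 3; exact two-sided sign-flip permutation p = 0.25, the smallest that 3 libraries allow, and 0.25 after Benjamini-Hochberg adjustment over the 3 pairs). Psmb8 made up 79.5% ± 1.46 of the TPM of the slot.

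The β2 slot, which cuts after basic residues, showed the same order. Psmb10 had 152, 141 and 242 TPM in replicates 1, 2 and 3, against 47.2, 38.0 and 57.3 TPM for Psmb7. Psmb10 was 3.23, 3.70 and 4.23 times as high, again with no overlap between the pair. Psmb10 minus Psmb7 was 1.86 ± 0.19 in log2(TPM + 1) (SD, n = 3; exact permutation p = 0.25, adjusted 0.25), and Psmb10 held 78.6% ± 2.26 of the slot.

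The β1 slot had the opposite order. This slot cuts after acidic residues in the constitutive form, and β1i lacks that activity. Psmb9 had 57.8, 59.8 and 88.7 TPM in replicates 1, 2 and 3, against 171, 105 and 195 TPM for Psmb6. The constitutive Psmb6 was the higher in all 3 libraries, and Psmb9 minus Psmb6 was -1.16 ± 0.37 in log2(TPM + 1) (SD, n = 3; exact permutation p = 0.25, adjusted 0.25). Psmb9 took 30.9% ± 5.46 of the slot, the share differing more between libraries (25.3, 36.2 and 31.3%) than in the other slots.

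Summed over both subunits, the 3 slots lay at like levels: 240 ± 53.3 TPM for β5, 226 ± 59.1 for β1 and 226 ± 64.7 for β2 (SD, n = 3). With coding transcripts only, the sums were 143 ± 27.5 TPM for β5, 190 ± 42.3 for β1 and 115 ± 21.95 for β2, and the ranges of β1 and β2 did not overlap. Over all transcripts, the order of means among the 6 subunits was Psmb8 (191 ± 41.3), Psmb10 (178 ± 55.6), Psmb6 (157 ± 46.1), Psmb9 (68.7 ± 17.3), Psmb5 (49.5 ± 12.5) and Psmb7 (47.5 ± 9.66 TPM). The first 3 lay within each other's spread, as did Psmb5 and Psmb7. With coding transcripts only, Psmb6 had the highest mean (127 TPM) and was above Psmb8 (93.1 TPM) in every library. Psmb10 (68.0), Psmb9 (62.9), Psmb5 (49.5) and Psmb7 (47.3 TPM) followed. Over all transcripts Psmb9 was higher than Psmb5 and Psmb7 in all 3 libraries. Its range overlapped with that of Psmb5 but not with that of Psmb7. The 433-base coding model Psmb9-202 held 28.7% of Psmb9 TPM but 7.53% of its expected counts. The longer coding model Psmb9-204 alone had 35.6, 34.7 and 58.4 TPM in replicates 1, 2 and 3, below Psmb5 in every library.

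The size of the β5 and β2 differences, though not their direction, rested on transcripts that are not annotated as coding. With protein-coding transcripts only, a choice made after seeing the data, Psmb8 had 65.5% ± 2.35 of the β5 slot and led Psmb5 by 1.84, 2.14 and 1.75 times in replicates 1, 2 and 3, a difference of 0.91 ± 0.15 in log2(TPM + 1). Psmb10 then had 59.1% ± 2.12 of the β2 slot and led Psmb7 by 1.32, 1.58 and 1.44 times, a difference of 0.52 ± 0.12. Psmb9 stayed below Psmb6, at 33.4% ± 5.63 of the slot and a difference of -0.996 ± 0.37. The exact permutation p was 0.25 for each. In the second transcript table, which has the column layout of kallisto, the coding-only differences were 0.88 for β5, 0.57 for β2 and -1.22 for β1.

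**Figure D2:**
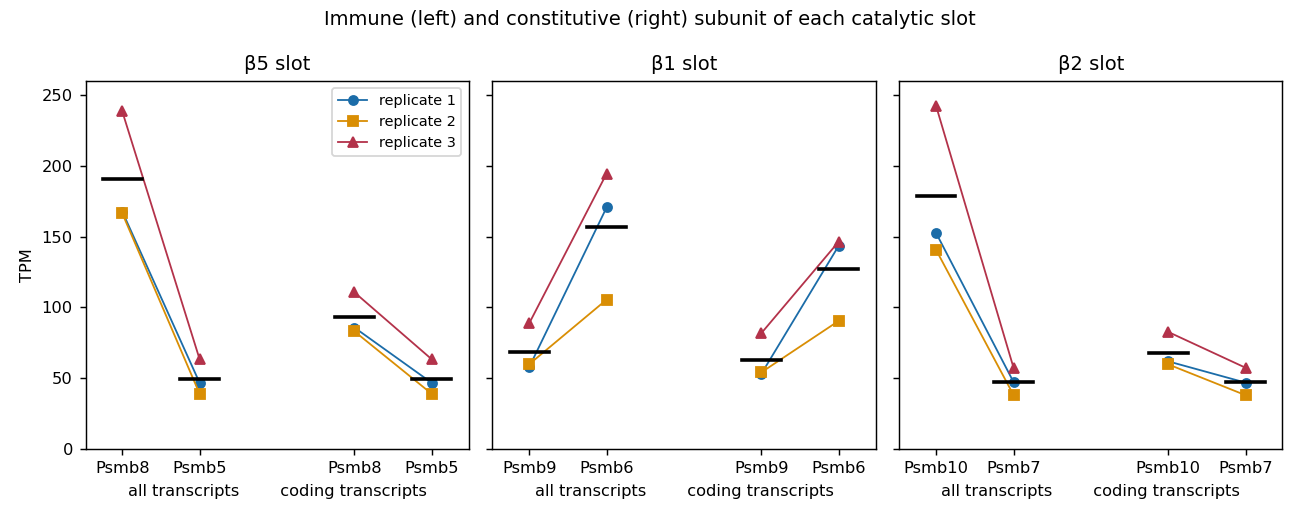
TPM of the immune and the constitutive subunit of each catalytic slot, with all transcripts of the gene on the left of each panel and coding transcripts only on the right; lines join values of 1 library and bars give the mean of 3. Psmb8 and Psmb10 lay above their partners in every library on both sides, with smaller gaps for coding transcripts, and Psmb9 lay below Psmb6.

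Non-coding transcript models carried much of Psmb8 and Psmb10. Psmb8 lies at chr17:34197721-34201454 (+ strand, mm10). Its coding model Psmb8-203 had 83.3, 81.1 and 106 TPM in replicates 1, 2 and 3, while Psmb8-205, annotated as a retained intron, had 80.3, 82.4 and 127 TPM. The retained intron class held 50.9% ± 2.46 of Psmb8 TPM in the table with RSEM column layout and 51.1% ± 2.36 in the kallisto layout. Of the 1234 bases of Psmb8-205, 799 (64.7%) are also in Psmb8-203. Outside it lie the 190-base intron chr17:34199381-34199570 and 245 bases at the 3′ end, chr17:34201206-34201450. The 3′ stretch is also part of the longer coding model Psmb8-201, whose last exon is 277 bases long, against 28 bases in Psmb8-203. Counts in those 245 bases therefore do not tell a kept intron from a coding transcript with the longer end. The intron is shown because it marks the kept-intron form against Psmb8-203, with the first and last 2 bases, its splice sites, in capitals.
Psmb8-205 intron: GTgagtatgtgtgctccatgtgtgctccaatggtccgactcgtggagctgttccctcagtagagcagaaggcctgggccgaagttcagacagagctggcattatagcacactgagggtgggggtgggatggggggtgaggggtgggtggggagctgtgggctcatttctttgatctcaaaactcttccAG

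Psmb10 lies at chr8:105935735-105938444 (- strand, mm10). Its coding transcript Psmb10-201, of 1311 bases, had 61.8, 59.7 and 82.6 TPM in replicates 1, 2 and 3. The 426-base Psmb10-203, a processed transcript with no coding sequence annotated, had 81.8, 70.0 and 133 TPM. In expected counts Psmb10-203 held 19.8% of the gene and Psmb10-201 74.3%, so the short length of Psmb10-203 raised its part of TPM to 52.8% ± 2.66. It shares 378 bases (88.7%) with Psmb10-201. Most of the rest is its first exon, 44 bases within an intron of Psmb10-201 at chr8:105936982-105937025 (- strand). That exon is shown as the main stretch of Psmb10-203 outside Psmb10-201. All 44 bases also lie in an exon of the retained-intron model Psmb10-205, which had 6.27, 8.74 and 21.9 TPM in replicates 1, 2 and 3. Reads within these bases therefore do not tell Psmb10-203 from Psmb10-205. No letter is in capitals.
Psmb10-203 first exon: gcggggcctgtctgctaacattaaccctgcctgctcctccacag

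**Figure D3:**
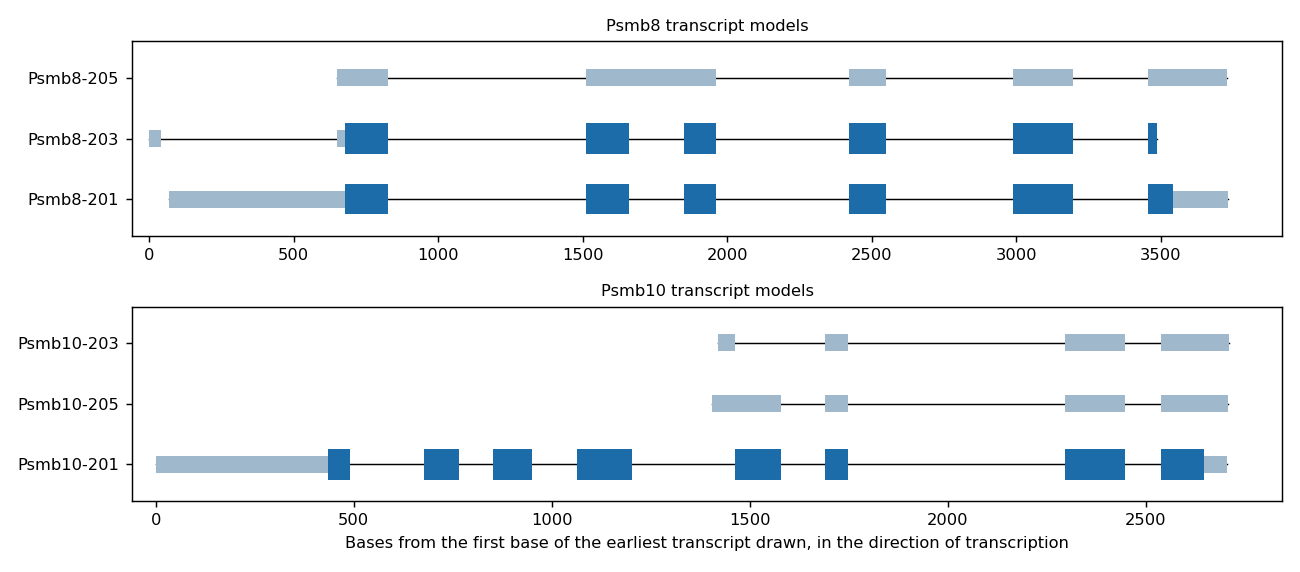
Transcript models of Psmb8 and Psmb10 drawn to scale, with exons as pale boxes and coding sequence as tall dark boxes, in bases from the earliest start drawn. Psmb8-205 keeps the 190-base intron and ends beyond Psmb8-203, and Psmb10-203 starts in an intron of Psmb10-201.

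Such a division was unusual among proteasome genes. Coding transcripts held a median of 98.4% of TPM over the 47 expressed genes in the RSEM layout and 97.1% in the kallisto layout, and at least 90% in 40 and 38 genes. Under 60% was coding in Psmb10 (39.0% ± 4.38), Psmb8 (49.1% ± 2.46) and the α subunit Psma3 (51.7% ± 0.67) in the RSEM layout. In the kallisto layout the ATPase Psmc6 was added, at 59.2% ± 10.8 against 87.1% ± 2.91 in the RSEM layout, so its division is uncertain. The lid subunit Psmd13 was coding for 62.8% ± 3.68, with 34.0% ± 1.86 on a transcript annotated for nonsense-mediated decay. Among the constitutive catalytic genes Psmb5 was coding for 100% and Psmb7 for 99.5% ± 0.44, and Psmb6 had 18.2% ± 5.64 on retained-intron transcripts. Psmb9 was coding for 91.5% ± 0.92. Psme2 was coding for 69.9, 75.4 and 89.9% in replicates 1, 2 and 3. Its highest retained-intron transcript had 62.7, 49.4 and 18.9 TPM in these libraries.

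**Figure D4:**
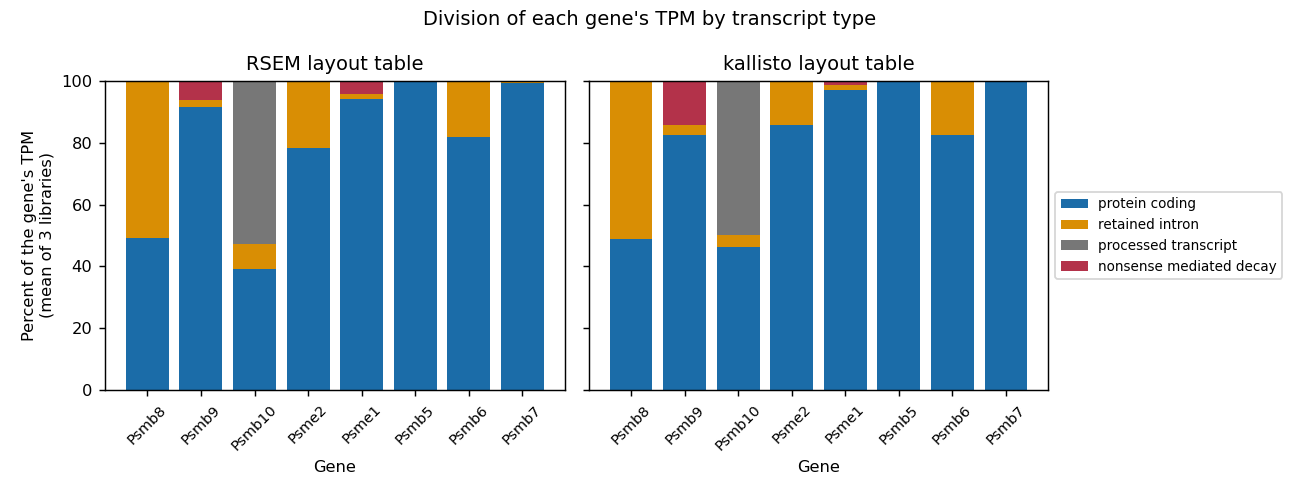
Percent of each gene's TPM by annotated transcript type, as the mean of 3 libraries, in the tables of RSEM layout (left) and kallisto layout (right). Psmb8 and Psmb10 had under 60% on coding transcripts in both, while Psmb5 and Psmb7 were almost wholly coding.

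The thymic β5t subunit Psmb11, a catalytic subunit of cortical thymic epithelium, was listed at 0 TPM in each library of the gene table. The kallisto layout gave it 26.9, 26.7 and 9.24 estimated counts in replicates 1, 2 and 3, all under 0.1 TPM. Foxn1, the master factor of that epithelium, was also at 0. Psma8, the testis partner of the α subunit Psma7, had 73, 61 and 42 counts, or 0.89, 0.50 and 0.56 TPM, against 73.1, 59.8 and 73.0 TPM for Psma7. Neither tissue-restricted subunit came near the level of its common relative.

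The 4 β subunits without catalytic sites were all expressed, at a median of 51.6 ± 10.6 TPM (SD, n = 3), near the 49.7 ± 12.4 TPM of the median constitutive catalytic gene. Psmb2 was the highest, with 74.2, 62.1 and 80.7 TPM in replicates 1, 2 and 3. Psmb1 was the lowest of the 4, with 34.1, 27.5 and 39.1 TPM. The α ring, which forms the gate of the barrel, had a median of 62.1 ± 10.3 TPM over 8 genes. Without Psma8, its 7 members ran from Psma2 at 33.9 ± 5.16 TPM to Psma7 at 68.6 ± 7.64 TPM.

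The cap groups had lower medians than the barrel groups. The 6 ATPases, which unfold proteins and thread them into the barrel, had a median of 38.1 ± 5.70 TPM (SD, n = 3). They lay close together, from Psmc6 (36.2, 22.5 and 33.6 TPM in replicates 1, 2 and 3) to Psmc1 (53.0, 45.6 and 59.0 TPM). The 11 lid and base subunits, which bind ubiquitin and strip it off, had a median of 28.3 ± 4.05 TPM. Psmd8 stood far above the others, with 137, 69.2 and 133 TPM, and the next, Psmd2, had 60.6, 46.2 and 74.6 TPM. Psmd12 was the lowest at 19.9, 15.3 and 23.3 TPM. The deubiquitinase Psmd14 averaged 38.2 ± 5.79 TPM and the ubiquitin receptor Psmd4 44.0 ± 5.43 TPM.

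Among the activators, the interferon-induced pair was far more abundant than the others. Psme2, the β chain of PA28, had 238, 224 and 315 TPM in replicates 1, 2 and 3, and was the highest of all 50 genes. Psme1, the α chain, had 152, 133 and 199 TPM. Psme3, the nuclear PA28γ, had 23.9, 19.1 and 24.8 TPM, and Psme4, the large activator PA200, had 20.4, 14.2 and 22.9 TPM. Both lay below Psme1 and Psme2 in every library. Psmf1, the inhibitor PI31, was the lowest of the group with 6.93, 4.87 and 7.85 TPM.

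Psme2b is a near copy of Psme2 on another chromosome, and reads of the copies can be shared. Its 20.91, 21.99 and 43.29 TPM in replicates 1, 2 and 3 were 8.79, 9.81 and 13.7% of Psme2 in the gene table, against 16.58, 19.96 and 28.05% in the kallisto layout. Its level is therefore uncertain. It also shares 41 exon bases on the same strand with 9930111J21Rik1, which had 5426, 7263 and 10578 counts.

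The assembly helpers, chaperones that leave once the particle is built, had the lowest median of the role groups with several genes, 5.46 ± 0.72 TPM (SD, n = 3) over 7 genes. Of the chaperones of the α ring, Psmg1 had 4.17, 3.09 and 3.62 TPM in replicates 1, 2 and 3, and Psmg2 had 4.67, 3.23 and 4.74 TPM. These overlapped across libraries. Psmg3 had 5.36, 4.73 and 7.31 TPM and its partner Psmg4 had 14.7, 9.25 and 16.4 TPM. The pair did not overlap in TPM, Psmg4 being the higher in every library. Before division by length the pair overlapped, with 243, 320 and 350 counts for Psmg3 and 318, 297 and 374 for Psmg4. Psmd10 (gankyrin), a chaperone of the ATPase base, was the highest with 23.0, 13.7 and 24.3 TPM. The other base chaperones Psmd5 and Psmd9 stood at 5.22 ± 0.98 and 5.49 ± 0.68 TPM. Pomp, the chaperone of the β ring, which has no Psm symbol, was far higher than these 7, at 93.7 ± 10.5 TPM. Psmc3ip had 0.51, 0.61 and 0.43 TPM.

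Differences between libraries exceeded counting error for most genes, in the proteasome as elsewhere. A Poisson heterogeneity chi-square test with Benjamini-Hochberg adjustment at 0.05 called 40 of the 49 proteasome genes tested, against 70.4% of all 13827 genes tested. Of the 9055 expressed coding genes tested, 7047 were called. The 9 proteasome genes not called were Psmc2, Psmc4, Psma3, Psmd5, Psmd9, Psmd11, Psmd14, Psmg1 and Psmg2. The differences were mostly small. The median ratio of the highest to the lowest library was 1.16 over proteasome genes, against 1.19 over expressed coding genes and 1.27 over all genes tested. The median biological coefficient of variation was 0.121, against 0.137 over expressed coding genes and 0.166 over all genes tested. Replicates 1, 2 and 3 had the highest CPM of 7, 18 and 24 proteasome genes, against 29.5, 32.4 and 38.0% of all genes tested. They had the lowest CPM of 30, 10 and 9, against 38.2, 29.2 and 32.6%. Over the 9055 expressed coding genes tested, they were highest for 1820, 3214 and 4021 and lowest for 4210, 2631 and 2214. For Psma3 the ratio was 1.00, with 80.10, 79.89 and 80.04 CPM in replicates 1, 2 and 3.

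The 3 immune catalytic subunits, Psme1, Psme2 and Psme2b shared 1 order of the libraries. Psme3, the nuclear PA28γ, did not, with 79.0, 86.4 and 81.7 CPM in replicates 1, 2 and 3. Psmb8 had 194, 260 and 285 CPM in replicates 1, 2 and 3. Psmb9 had 67.7, 91.7 and 108 CPM, and Psmb10 had 123, 159 and 183 CPM. All 3 were lowest in replicate 1 and highest in replicate 3, by ratios of 1.47, 1.60 and 1.49, with adjusted p of 1.04e-200, 2.69e-102 and 1.52e-130 in the heterogeneity test. That test weighs differences against counting error, so its p-values depend on the number of counts as well as on the ratio. Psme1 had 182, 215 and 243 CPM, Psme2 188, 249 and 283 CPM, and Psme2b 18.0, 25.7 and 38.1 CPM. These lay in the same order, with ratios of 1.34, 1.51 and 2.11. Psme2b, Psmb9, Psme2, Psmb10 and Psmb8 had the 5 largest ratios among proteasome genes with a mean of at least 1 TPM.

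All 6 of these genes were lowest in replicate 1 and highest in replicate 3, against 20.9% of all genes tested and 11 of the other 43 proteasome genes tested. Those 11 included 3 of the 4 β subunits without catalytic sites and 2 of the 3 constitutive catalytic genes. Of the 9055 expressed coding genes tested, 2339 had this order. Psme2b can share reads with its near copy Psme2, so its order need not be separate from that of Psme2. The order held with DESeq2 size factors for all 6. In TPM rescaled to coding genes all 6 were lowest in replicate 1 and 5 highest in replicate 3, Psme2 having 714, 860 and 852 in replicates 1, 2 and 3. In TPM as deposited all 6 were highest in replicate 3, but 4 were lowest in replicate 2. Of all genes tested, 24.1% were highest in replicate 3 in the rescaled TPM and 51.6% in TPM as deposited. None of the 6 calls was lost when any 1 library was left out. Malat1 and Neat1 ran the other way across the same libraries, with values given above, and their part in the order was not tested.

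The constitutive catalytic genes had smaller ratios than Psmb8, Psmb9 and Psmb10, and not all were in that order. Psmb5 had 43.9, 49.6 and 60.9 CPM in replicates 1, 2 and 3, with a ratio of 1.39, and Psmb7 had 63.1, 67.9 and 76.1 CPM, with a ratio of 1.21. Psmb6 was lowest in replicate 2, with 134, 112 and 152 CPM and a ratio of 1.36. All 3 were highest in replicate 3, a library in which 38.0% of all genes tested had the highest CPM. Of the 28 other barrel and cap subunits (α ring without Psma8, β subunits without catalytic sites, ATPases, lid and base), 23 were called, against 70.4% of all genes tested, and the median ratio was 1.13. Of these 28, 15 were highest in replicate 2, against 32.4% of all genes tested. The 4 β subunits among them were all lowest in replicate 1, and 3 of the 4 were highest in replicate 3.

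Psmd8 departed from the other lid subunits. It had 221, 152 and 218 CPM in replicates 1, 2 and 3, lowest in replicate 2, with a ratio of 1.45 between highest and lowest. Psmd2, a base subunit, had 208, 222 and 260 CPM. Psme4 was highest in replicate 3, with 161, 159 and 193 CPM. Of the 7 assembly helpers 3 were called, Psmd10, Psmg3 and Psmg4, against 70.4% of all genes tested. Psmg4 had only 6.24, 5.49 and 7.39 CPM.

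**Figure D5:**
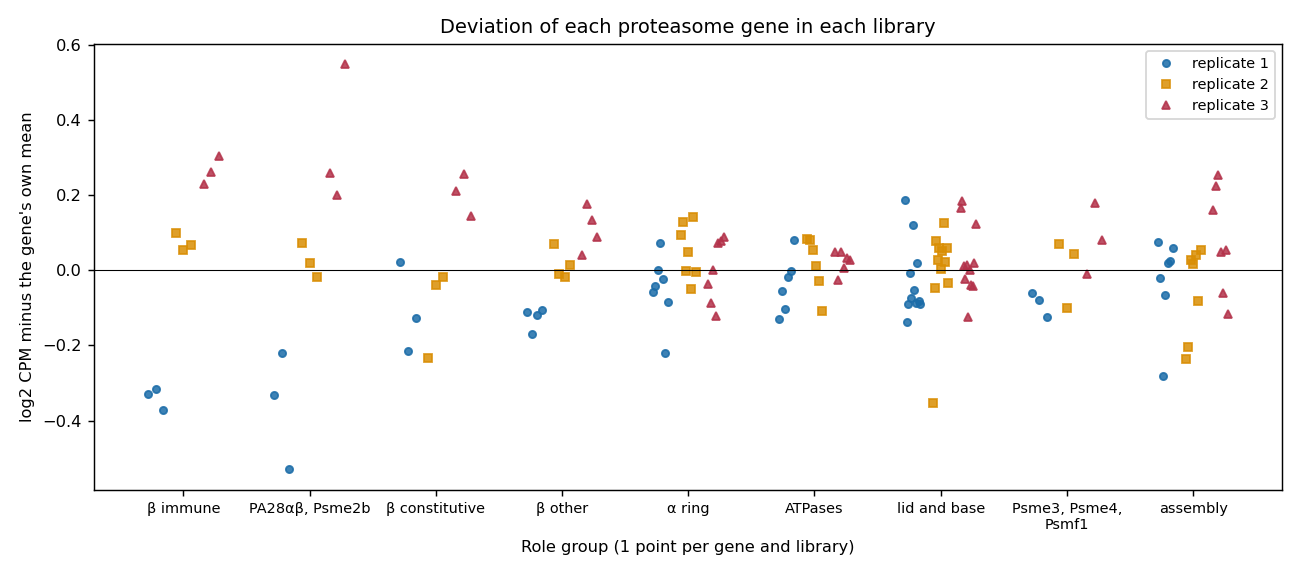
Log2 CPM of each expressed proteasome gene minus its own mean over the 3 libraries, by role; each point is 1 gene in 1 library. Replicate 1 lay lowest and replicate 3 highest for all genes of the immune β and PA28 groups (Psme1, Psme2 and Psme2b), while points of the α ring and ATPase groups mixed around 0.

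Genes of interferon response and peptide loading, which work with the immunoproteasome, had high levels and a like order. All 10 listed genes were expressed, and all 10 were called, against 70.4% of all genes tested. All 10 were highest in replicate 3, against 38.0%, and 8 were lowest in replicate 1, against 38.2%, with a median ratio of 1.39. Of the 9055 expressed coding genes tested, 4021 were highest in replicate 3 and 4210 lowest in replicate 1. The 10 macrophage markers were also all called, 6 of them highest in replicate 3 and 8 lowest in replicate 1, with a median ratio of 1.36. Irf1, an activator of immunoproteasome genes, had 632, 560 and 968 CPM in replicates 1, 2 and 3, and was lowest in replicate 2. Nlrc5, the activator of MHC class I genes, had 159, 182 and 227 CPM. The peptide transporter chains Tap1 and Tap2 had 321, 386 and 477 CPM and 122, 152 and 196 CPM. Of these 4 genes, all but Irf1 were lowest in replicate 1 and highest in replicate 3. The highest by level were the MHC class I light chain B2m (3566 ± 784 TPM) and H2-K1 (2357 ± 345 TPM), and the trimming peptidase Erap1 was the lowest (22.4 ± 4.31 TPM; SD, n = 3).

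Psmb8 and Psmb9 flank Tap1 within the MHC on chromosome 17. Psmb9 and Tap1 lie on opposite strands and share 212 exon bases, 5.79% of those of Psmb9. Tap1 had 16345, 20888 and 24140 counts in replicates 1, 2 and 3, and Psmb9 had 3449, 4961 and 5479 counts. Since the strand setting of the counting is not given, reads in the shared bases cannot be told apart. The same holds for Psmb7 and Nek6, which share 405 exon bases on opposite strands, 11.8% of those of Psmb7.

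Other genes of the ubiquitin and proteasome pathway were expressed without exception: 25 of 26 listed genes were matched, and all 25 reached 1 TPM in every library. The median was 22.4 ± 4.90 TPM (SD, n = 3). The polyubiquitin gene Ubb had 353 ± 107 TPM, and the ubiquitin ligase Ube3c was the lowest (5.41 ± 0.79 TPM). In the heterogeneity test 20 of 25 were called, against 70.4% of all genes tested. In replicate 3, 11 were highest, against 38.0%, and 4 followed the order of the immune subunits, against 20.9%. These counts lay near the shares over all genes. Nfe2l1, the transcription factor that raises proteasome genes when the proteasome is impaired, had 433, 350 and 509 CPM in replicates 1, 2 and 3. Pomp had 117, 129 and 118 CPM, and so did not share the order of the immune subunits.

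Promoter sequences from RefSeq (GRCm38.p6), 250 bases before to 50 after each start, were matched for 42 of the 50 genes by symbol, as 45 promoters. Each of 4 motifs was searched on both strands in these and in all 32851 promoters of the table. The core of the antioxidant response element, TGACNNNGC, was in promoters of 6 of the 42 genes (Psmb5, Psmb6, Psmc6, Psmd12, Psmd9 and Psme4), against 12.4% of all promoters. This count lay near that share. The gamma-activated sequence TTCNNNGAA was in 3 (Psmb8, Psmd2 and Psmg1), against 8.3%. The core of the interferon-stimulated response element (GAAA, 2 bases of any kind, GAAA) was in 5 (Psmb3, Psmd4, Psmd9, Psme1 and Psmg4), against 3.44%. The kappa B motif (GGGA, any base, TTTCC) was in none, against 0.411% of all promoters. The matched promoters of Psmb9 and Psmb10 held none of the 4 motifs. The Psmb9 window, chr17:34187281-34187580 (- strand), lies within the annotated gene, which begins at 34187764 on that strand. It therefore leaves out the bases before that start. In Psmb8 the match was TTCCCAGAA, 97 bases before the RefSeq start, which lies downstream of the start of the longest model above. Promoters of the constitutive Psmb5 and Psmb6 are shown because both hold the antioxidant core, in capitals, at chr14:54617946-54618245 (- strand) and chr11:70525107-70525406 (+ strand). The match lies 47 bases before the start in Psmb5 and 9 bases before it in Psmb6. A match is a description of these letters and not of binding.
Psmb5 promoter: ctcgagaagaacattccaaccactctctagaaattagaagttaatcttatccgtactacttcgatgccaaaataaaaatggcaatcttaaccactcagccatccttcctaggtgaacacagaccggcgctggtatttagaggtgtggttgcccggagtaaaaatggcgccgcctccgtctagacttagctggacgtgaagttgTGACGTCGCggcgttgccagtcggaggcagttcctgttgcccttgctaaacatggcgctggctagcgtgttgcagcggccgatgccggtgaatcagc
Psmb6 promoter: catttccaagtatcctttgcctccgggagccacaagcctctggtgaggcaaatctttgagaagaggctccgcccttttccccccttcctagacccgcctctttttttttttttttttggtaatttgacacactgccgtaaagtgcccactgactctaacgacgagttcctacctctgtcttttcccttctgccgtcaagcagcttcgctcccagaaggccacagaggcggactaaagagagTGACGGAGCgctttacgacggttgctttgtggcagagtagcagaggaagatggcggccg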

How the data were processed

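The genes and lists were chosen with earlier results of these data known. The authors' files comprise 1 table of genes and 2 of transcripts per library. The expected count, which can be fractional, was deposited by the authors without normalisation and was rounded for count tests. TPM was deposited by the authors as a share of all indexed features, down to tRNAs and spike-ins. The posterior SD of each expected count, also deposited by the authors, was at most 0.513% of the count in expressed proteasome genes. Notes deposited with the files name the mm10 assembly and GENCODE M21. The tables have RSEM and kallisto column layouts, but neither the quantifier nor the aligner, its version or the strand setting is named: these were not given in the sources used here. The phiX genome and other entries that name no gene held 0.0785, 0.0521 and 0.0251% of counts in replicates 1, 2 and 3, and stayed out of library sizes and tests.

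A gene was called expressed at 1 TPM or more in every library. Immune minus constitutive differences in log2(TPM + 1) were taken within each library. Variation between libraries was tested over all genes that averaged at least 10 counts by a chi-square for Poisson heterogeneity, with 2 degrees of freedom, TMM library sizes and Benjamini-Hochberg adjustment at 0.05. Tagwise coefficients of variation were estimated without covariates in edgeR 4.0.16 (R 4.3.3). Alternatives were DESeq2 1.42.0 size factors, other count and TPM minimums, an adjusted p under 0.01, a pseudocount of 0.1, TPM rescaled to coding genes, the kallisto layout table, coding transcripts only (for the RSEM layout, added after seeing the data) and leaving out each library. The count test and the dispersion fit were tested on simulated data.

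Named with values per library are the catalytic, tissue-restricted, activator, inhibitor and Psmg genes, the highest and lowest gene of each role and the 5 largest ratios between libraries. From the other lists the highest, the lowest and a few preset genes are named, except 2 listed genes that are not reported here. Psma3, Psmd2, Psmd4, Psmd5, Psmd9, Psmd13 and Psmd14 were named after their values were seen.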

Additional observations from a re-analysis of the deposited data

How the results depend on the processing

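No paired analysis was possible because all 3 libraries belong to 1 group. The direction of each catalytic pair was kept under every alternative. Leaving out each library in turn gave differences of 1.86 to 1.99 for Psmb8 minus Psmb5, 1.76 to 1.96 for Psmb10 minus Psmb7 and -1.34 to -0.97 for Psmb9 minus Psmb6. Their permutation p of 0.25 is the smallest 3 libraries allow and says nothing about stability. The number of proteasome genes expressed was 47, and 41 at a minimum of 5 TPM. The number called in the heterogeneity test was 40, and 36 to 40 under other size factors, count minimums and an adjusted p under 0.01. With DESeq2 size factors 40 were called, against 70.2% of all genes tested. With a mean count of at least 100, 38 of 47 were called, against 77.6%. The share over all genes at an adjusted p under 0.01 is not given here. With 1 library left out 29 to 33 proteasome genes were called, against 50.7 to 53.5% of all genes. With no filter on low counts, 39 were called, against 45.5% of 22412 genes. Single calls were lost for 7 to 11 genes when a library was left out, and the share called over all genes fell as well. The number highest in replicate 3 was 24 in CPM, against 38.0% of all genes tested. It was 17 in TPM rescaled to coding genes, against 24.1%, and 35 in TPM as deposited, against 51.6%. The median coefficient of variation of 0.121 was 0.120 to 0.138 with 1 library left out, against 0.158 to 0.177 over all genes tested. Coding levels of Psmb8, Psmb9, Psmb10, Psma3, Psmc6, Psmd13 and Psme2 depend on how reads were divided between transcript models, and the cause of that division was not tested.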
